A study of Mus musculus with 14 samples.

Results

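These results concern 9 promoter-type bins of the mouse genome that had more called H3K4me3-anchored contacts in embryonic stem cells (ESCs) than in neural precursor cells (NPCs), those of Tmem235, Rfx4, Dab2ip, Thrsp, Cyp4f40, Adamtsl3, Wscd2, Krt2 and Isg20. A bin is a 10 kb window of mm10, and a contact called between 2 bins is termed a loop. The bins were chosen by their MAPS loop counts, which were higher in ESC control than in NPC control, so that difference is given as a description only and supports nothing. Of the 10116 bins with an annotated gene start and an H3K4me3 peak mark in any list, 2822 held at least 10 MAPS loops over both controls, and 6 of the 9 bins are among them. The bins of Tmem235 and Wscd2 are marked gene ends without a strand in the table used here, and that of Cyp4f40 is the far end of the gene from its annotated start.

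The assay was H3K4me3 PLAC-seq, in which cross-linked chromatin is ligated in place, fragments carrying trimethylated lysine 4 of histone H3 are pulled down, and the ligated pairs are sequenced. All 4 groups used here come from F123 mouse cells carrying CTCF-AID, a CTCF fused to a degron, so the controls carry the fusion as well. NPC auxin and NPC control were collected on day 4 of neural differentiation with or without auxin, the compound that triggers degradation, and how long the NPCs had auxin is not in the titles. ESC auxin received auxin for 48 h and ESC control for 0 h. Each group had 2 samples and each of the 2 callers gave 1 list per group, so no difference between groups can be tested here and no p-value is given. Intervals are 95% exact Clopper-Pearson intervals that cover counting error only and treat neighbouring loops as independent. The other 3 groups of the series, 6 samples of NPCs with dCas9 constructs, were not analysed here.

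H3K4me3 marks the nucleosomes around active and poised promoters. CTCF is a zinc finger protein that binds DNA and stalls the loop-extruding cohesin ring, and many promoter contacts end at its sites. Because the mark is what PLAC-seq pulls down, the assay reads contacts of marked chromatin and is blind to pairs with the mark at neither end.

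Across the whole lists, MAPS called 41667 loops in NPC auxin, 82861 in NPC control, 27610 in ESC auxin and 56714 in ESC control, and FitHiChIP called 24836, 44892, 22705 and 33475. The total contacts behind the FitHiChIP lists lay between 59961568 in NPC auxin and 47519917 in ESC control. No loop of any list lacked a marked anchor. Of 8 ESC marker genes 6 had a marked bin in the NPC lists and 7 in the ESC lists, and of 8 neural precursor marker genes 7 and 6 did, so the marks alone barely separate the cell types. The neural cadherin gene Cdh2 had a mark in the NPC lists and no loop in an ESC list, with 17 MAPS loops in NPC control and 0 in the other 3 lists. Of 7 neural precursor markers with a loop, 5 held more loops in NPC control than in ESC control and 2 fewer. Of 7 ESC markers with a loop, 3 held more, 1 fewer and 3 the same number. Of 6 mesoderm and endoderm markers, 5 held more and 1 fewer, so loop counts did not separate the marker lists either. The lists hold no expression.

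The promoter windows below were chosen to set genes whose bin was marked in both cell types beside genes whose bin was marked in the ESC lists only. They run from 250 bases before to 50 after an annotated start, from RefSeq (GRCm38.p6), and read 5′ to 3′ along the gene. Capitals mark matches on either strand to the CCAAT box CCAAT or the GC box GGGCGG. Rfx4 lies at chr10:84755798-84756097 (+), Adamtsl3 at chr7:82335444-82335743 (+), and Dab2ip start 2 at chr2:35582590-35582889 (+), all in bins marked in both cell types. Dab2ip start 1 lies at chr2:35558208-35558507 (+) and Thrsp at chr7:97417501-97417800 (-), in bins marked in the ESC lists only.
Rfx4: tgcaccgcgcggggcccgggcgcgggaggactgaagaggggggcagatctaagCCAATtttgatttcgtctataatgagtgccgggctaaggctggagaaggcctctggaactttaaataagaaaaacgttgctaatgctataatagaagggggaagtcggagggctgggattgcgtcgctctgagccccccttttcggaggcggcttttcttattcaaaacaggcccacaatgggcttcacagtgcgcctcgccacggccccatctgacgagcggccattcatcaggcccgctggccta
Adamtsl3: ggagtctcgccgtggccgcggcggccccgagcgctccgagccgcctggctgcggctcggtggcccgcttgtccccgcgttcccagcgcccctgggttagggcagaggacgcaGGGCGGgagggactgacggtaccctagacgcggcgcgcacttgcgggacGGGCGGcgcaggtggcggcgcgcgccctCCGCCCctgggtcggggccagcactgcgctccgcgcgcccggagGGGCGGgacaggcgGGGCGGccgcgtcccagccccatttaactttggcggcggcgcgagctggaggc
Dab2ip start 2: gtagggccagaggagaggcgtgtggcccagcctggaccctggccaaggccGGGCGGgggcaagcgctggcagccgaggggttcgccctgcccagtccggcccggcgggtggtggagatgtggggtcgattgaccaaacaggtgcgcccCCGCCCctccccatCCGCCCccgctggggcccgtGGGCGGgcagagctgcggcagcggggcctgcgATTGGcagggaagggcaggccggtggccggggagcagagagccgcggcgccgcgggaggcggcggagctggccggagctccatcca
Dab2ip start 1: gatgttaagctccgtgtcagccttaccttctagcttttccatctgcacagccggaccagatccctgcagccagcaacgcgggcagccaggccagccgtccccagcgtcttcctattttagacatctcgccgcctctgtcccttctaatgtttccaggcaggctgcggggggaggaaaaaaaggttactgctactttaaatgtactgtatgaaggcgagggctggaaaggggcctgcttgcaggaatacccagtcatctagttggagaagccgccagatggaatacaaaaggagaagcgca
Thrsp: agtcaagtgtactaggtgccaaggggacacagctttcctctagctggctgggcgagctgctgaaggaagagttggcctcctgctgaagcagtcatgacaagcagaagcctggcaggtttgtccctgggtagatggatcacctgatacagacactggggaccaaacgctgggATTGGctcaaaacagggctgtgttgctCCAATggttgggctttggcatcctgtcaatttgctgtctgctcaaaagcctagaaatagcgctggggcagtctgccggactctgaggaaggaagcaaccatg

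The RefSeq table held windows for 7 of the 9 genes and none for Tmem235 or Wscd2. Adamtsl3 had 46 CpG dinucleotides in its 300 bases, and only 1.44% of the 32851 windows of the table had more; the median window had 7. The 4 windows of these genes in bins marked in both cell types (Rfx4, Adamtsl3, and Dab2ip starts 2 and 3) had 20 to 46 CpG. The 7 windows in bins marked in the ESC lists only (Dab2ip starts 1 and 4, Thrsp, Krt2 and the 3 Isg20 starts) had 1 to 12. This split was seen after the windows were read and was not tested. GC boxes were found 5 times in Adamtsl3 and 4 times in Dab2ip start 2, and none in Rfx4, Dab2ip start 1 or Thrsp, while 35.7% of all windows hold at least 1. CCAAT, held by 37.4% of all windows, was found 2 times in Thrsp and 1 time each in Rfx4 and Dab2ip start 2, among the windows printed. No window of the 7 genes held the CTCF core motif searched, of 12 positions, present in 2.43% of all windows, or the TATA box TATAAA, present in 13.6%.

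Summed over the 9 bins, the MAPS lists held 13 loops in NPC auxin, 13 in NPC control, 65 in ESC auxin and 118 in ESC control. The bin of Tmem235, a gene for a transmembrane protein, holds the whole gene, chr11:117860752-117865543, and an end of Tha1, and held 1, 0, 9 and 17 loops in the same order of lists. That of Rfx4, a winged helix transcription factor of brain development, is chr10:84750001-84760000 and held 2, 2, 8 and 15. The bin of the first start of Dab2ip, a Ras GTPase-activating protein, is chr2:35550001-35560000 and held 3, 0, 7 and 10. The bins of Tmem235 and Dab2ip were the ones without a loop in NPC control. Of all bins with at least 10 loops and an annotated start 0.0354% had none, which is the Dab2ip bin itself. The adjacent bins were not empty. With the bin on either side counted too, Tmem235 held 21 loops in NPC control and 53 in ESC control, and Dab2ip held 2 and 14.

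Thrsp encodes the lipogenic protein Spot 14, and its bin chr7:97410001-97420000 held 1 loop in NPC auxin, 1 in NPC control, 7 in ESC auxin and 15 in ESC control. Cyp4f40 belongs to the cytochrome P450 family that hydroxylates fatty acids, and the bin of its far end, chr17:32670001-32680000, held 1, 1, 3 and 10 in the same order. Its annotated starts lie in another bin, with 0 loops in all 8 lists. For Adamtsl3, a secreted glycoprotein of the extracellular matrix, the counts at chr7:82330001-82340000 were 3 in NPC auxin, 2 in NPC control, 9 in ESC auxin and 14 in ESC control. In the ESC lists each of these bins held more loops than in the NPC list of the same treatment.

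Wscd2, which encodes a protein with a WSC domain, was read at chr5:113580001-113590000, with 1 loop in NPC auxin, 3 in NPC control, 9 in ESC auxin and 15 in ESC control. Krt2, a type II keratin of the upper epidermis, lies at chr15:101810001-101820000 and held 1, 2, 6 and 11 in the same order. Isg20, an interferon-induced exonuclease, lies at chr7:78910001-78920000 and held 0, 2, 7 and 11, and an end of its neighbour Aen lies in the same bin. FitHiChIP called 1 loop at the 9 bins in NPC auxin, 1 in NPC control, 21 in ESC auxin and 35 in ESC control, the NPC ones at Rfx4 with auxin and at Cyp4f40 in control. The number of FitHiChIP loops in ESC control ran from 1 at Thrsp to 9 at Wscd2.

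**Figure D1:**
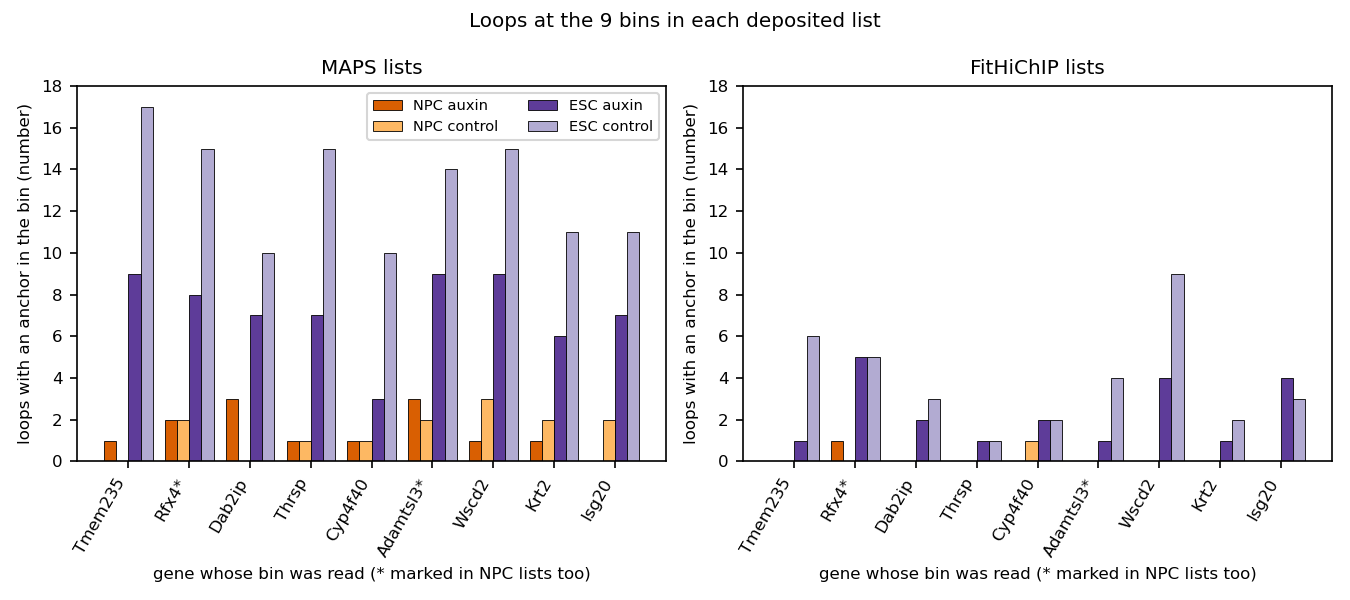
Number of loops with an anchor in each of the 9 bins (y axis) in the MAPS lists (left) and the FitHiChIP lists (right), in NPC auxin, NPC control, ESC auxin and ESC control from left to right within each gene. In the MAPS lists each bin has at most 3 loops in either NPC list and 10 to 17 in ESC control; 1 list stands behind each bar.

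All 9 bins held fewer MAPS loops in NPC control than in ESC control, which the choice of bins fixes; 19.2% of the 2822 bins did. Some bins that were not chosen had counts like these. The glucocorticoid-induced kinase gene Sgk1, with 1, 1, 11 and 17 loops in NPC auxin, NPC control, ESC auxin and ESC control, ranked 2 of 2822 by relative change, behind Dab2ip. Acot11, Perm1 and Pou2f2 also stood above Isg20 and Krt2, the lowest-placed of the 6 ranked genes, which tied with Npas4 and Pax2 at a log2 change of -2.55 relative to the list totals. Just below them came the shared bin of Antkmt and Metrn at -2.42, with 2 loops in NPC control and 10 in ESC control. In a comparison of 4019 bins holding 10 or more loops in total, Sgk1, Ptf1a, Pou2f2, Arhgap27 and Dcaf1 had the counts most like the mean of the 9, by Euclidean distances of 0.74 to 1.15 in log2(loops + 1) over 4 lists.

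The H3K4me3 mark differed between the 9 bins. Those of Rfx4 and Adamtsl3 were marked in the lists of both cell types, and the other 7 were marked in the ESC lists and unmarked in the NPC lists. Of 8887 marked ESC bins with a gene start, 180 were unmarked in the NPC lists, which is 2.03%, and another 590 appeared in no NPC list. A pair with no marked anchor is in none of the lists, so at the 7 bins an NPC loop needed a partner with a mark of its own. All 8 loops of these bins in NPC auxin and all 9 in NPC control had such a partner.

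The 7 bins held 9 loops in NPC control, against 89 in ESC control, of which 24 had a partner marked in the NPC lists, 44 an unmarked one and 21 one in no NPC list. At Thrsp, Krt2 and Isg20 the numbers were equal: NPC control held 1, 2 and 2 loops, and ESC control held 1, 2 and 2 with a partner marked in the NPC lists. Equal numbers did not mean the same pairs. Of ESC control loops, 0 of 15 at Thrsp, 0 of 11 at Krt2 and 1 of 11 at Isg20 were called in NPC control. Of the whole ESC control list 50.3% was, but these bins were chosen with few NPC control loops, which keeps their shares low. Cyp4f40 held 1 loop in NPC control, against 7 in ESC control with a partner marked in the NPC lists, and Wscd2 held 3 against 8. Tmem235 held 0 against 3 and Dab2ip 0 against 1. Other bins with the same marks went the same way. Of 33 with at least 10 loops that were not chosen, 32 held fewer loops in NPC control than in ESC control. The loops came to 137 in NPC control and 326 in ESC control in all. Such bins need a marked partner for an NPC loop and reached 10 mostly through ESC control loops. Both favour this direction in advance, so it supports nothing about the 9 bins. Whether the mark accounts for any part of the lower NPC counts was not tested.

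**Figure D2:**
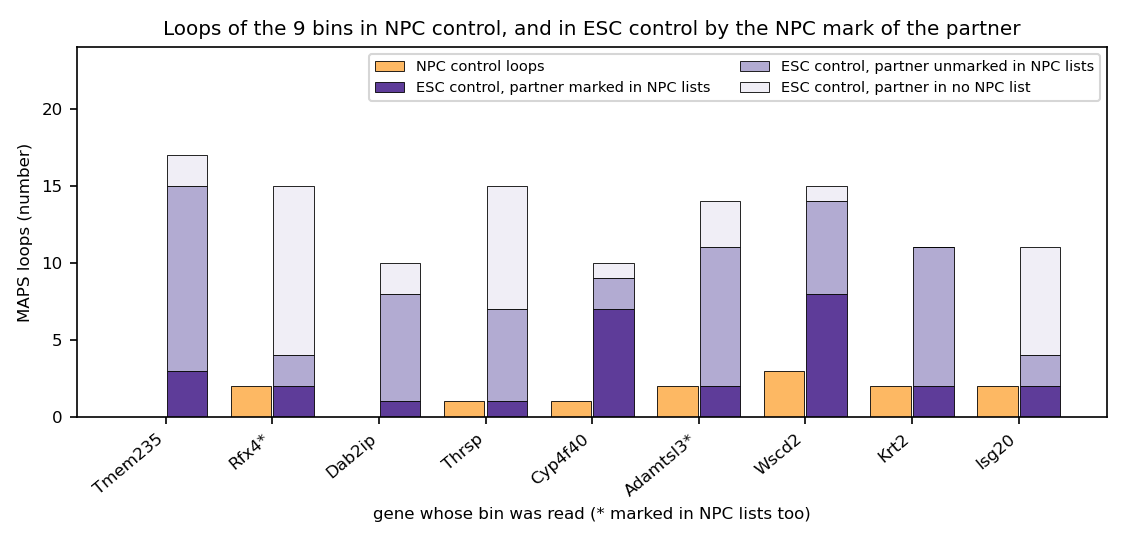
MAPS loops (y axis, number) of each bin in NPC control (left bar) and in ESC control (right bar, stacked by whether the partner bin is marked, unmarked or absent in the NPC lists). At Thrsp, Krt2 and Isg20 the dark segment is as high as the NPC control bar, at 1, 2 and 2 loops, but most of these are not the same pairs.

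At Rfx4 and Adamtsl3 the bin itself was marked in both cell types, so every pair was open to calling in the NPC lists too. Together they held 5 loops in NPC auxin, 4 in NPC control, 17 in ESC auxin and 29 in ESC control. Among all bins marked in both cell types with at least 10 loops, 18.4% held fewer loops in NPC control than in ESC control.

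Short-range reads, which MAPS counts for a bin as a measure of its coverage, were higher in the NPC lists at both bins. At Rfx4 there were 1409 in NPC auxin, 1239 in NPC control, 871 in ESC auxin and 747 in ESC control. At Adamtsl3 there were 1011, 896, 455 and 380 in the same order. Relative to the median ratio of the 31070 bins that the MAPS control lists share, the log2 difference between NPC control and ESC control was 0.12 at Rfx4 and 0.63 at Adamtsl3. Both bins had more short-range reads and fewer MAPS loops in the NPC lists. Reads covering the Rfx4 bin in the FitHiChIP lists were 9348 in NPC auxin and 7830 in ESC auxin. Relative to the median of 10415 shared bins this log2 difference was -0.11.

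Of the 7 bins marked in the ESC lists only, 5 had a value in NPC control. Relative to the same median their log2 differences between NPC control and ESC control were -0.18 at Thrsp, -0.24 at Isg20, -0.26 at Cyp4f40 and -0.32 at Krt2. Wscd2 stood lowest, with an unscaled log2 difference of -0.39 beside a median of 0.61 over those bins. It was the one bin with fewer unscaled short-range reads in NPCs, with 395 in NPC auxin, 350 in NPC control, 545 in ESC auxin and 459 in ESC control. Tmem235 and Dab2ip had no value in NPC control because the list gives reads only for bins with a loop; in the auxin lists they had 416 and 372 in NPC auxin, against 381 and 320 in ESC auxin. Relative to the median log2 difference of 0.47 over the 15229 bins that the MAPS auxin lists share, the difference between NPC auxin and ESC auxin ran from -0.93 at Wscd2 to 0.68 at Adamtsl3 over the 8 bins with a value. Reads covering the Cyp4f40 bin in the FitHiChIP lists were 2895 in NPC control and 3348 in ESC control. Relative to the median of 17492 shared bins this log2 difference was -0.46.

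Between ESC auxin and ESC control the coverage of all 9 bins moved with that of other bins. The log2 difference in short-range reads lay between -0.10 and 0.20 of the median of 17775 shared bins, the highest at Thrsp with 315 reads in ESC auxin and 219 in ESC control. Reads covering the bin in the FitHiChIP lists differed by -0.17 to 0.14 from the median of 12153 bins.

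**Figure D3:**
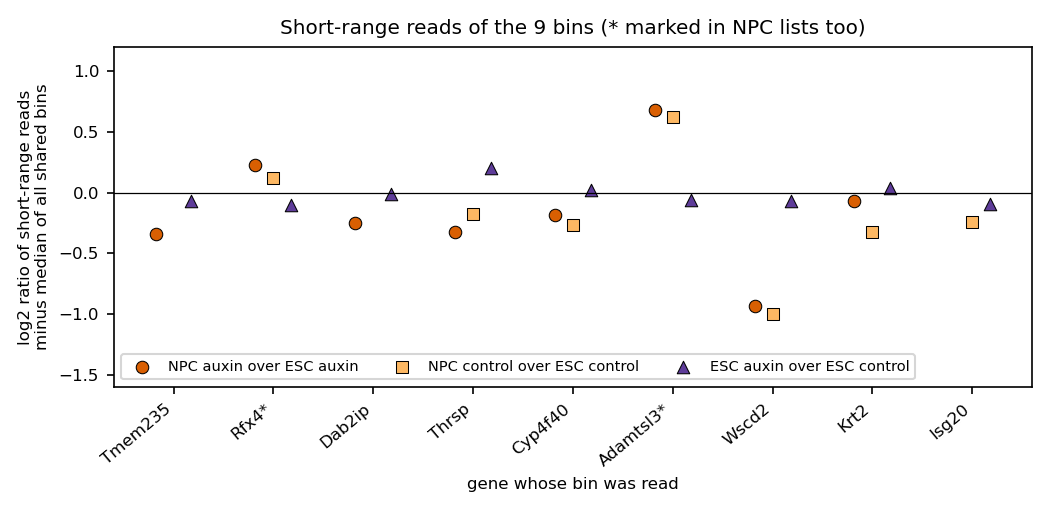
Log2 ratio of short-range reads of each bin minus the median over all bins that both lists share (y axis), for NPC auxin over ESC auxin, NPC control over ESC control and ESC auxin over ESC control. Rfx4 and Adamtsl3 lie above 0 in both cell type ratios, Wscd2 lies lowest in both, and the auxin ratios lie between -0.10 and 0.20; bins without a loop in a list have no point.

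With auxin in ESCs, all 9 bins kept loops in the MAPS list and all 9 held fewer than in ESC control, a direction that the choice of bins with many loops in ESC control favours. In the FitHiChIP lists 5 of the 9 held fewer in ESC auxin, and the share over all bins was not computed for that caller. There Rfx4 held 5 in ESC auxin and 5 in ESC control, Thrsp 1 and 1, Cyp4f40 2 and 2, and Isg20 4 and 3. Fewer MAPS loops in ESC auxin were also seen at 77.7% of 1504 bins with at least 10 loops over both lists. The direction in MAPS is thus that of its lists. The sum of 65 in ESC auxin was 55.1% of the 118 in ESC control, while the whole list held 48.7% as many. As a log2 change relative to the list totals this is 0.18 (-0.28 to 0.63), an interval that includes no difference from the list. In the MAPS lists none of the 9 reached a log2 change of -1, which 10.7% of all bins did, and none had lost all its loops, which 2.59% had. In the FitHiChIP lists Tmem235 held 1 loop in ESC auxin and 6 in ESC control, a log2 change of -1.25 with a pseudocount of 1. In the MAPS lists, with a pseudocount of 1, the median of the 9 was 0.26, against 0.36 over all bins, and their values ran from -0.42 at Cyp4f40 to 0.58 at Dab2ip.

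Of the 118 loops in ESC control, 37 were called again between the same bins in ESC auxin, a share of 31.4% (23.1 to 40.5), and 22.9% of the whole list was. In the FitHiChIP lists 10 of 35 were called again, or 28.6% (14.6 to 46.3), and 43.3% of that whole list was. The MAPS share thus lay above that of its list and the FitHiChIP share below, but the FitHiChIP interval includes 43.3%. With the partner allowed to shift by 1 bin, 66 of the 118 had a MAPS loop in ESC auxin, or 55.9%. The whole-list share with this allowance was not computed, so 55.9% cannot be set beside 22.9%. The shares differed between genes, with 8 of 15 loops called again at Rfx4, 5 of 10 at Dab2ip and 7 of 15 at Wscd2, against 1 of 11 at Isg20, 2 of 11 at Krt2 and 3 of 17 at Tmem235. At the 37 pairs the median log2 ratio of contacts, ESC auxin over ESC control, was 0, with 16 pairs lower, and it was -0.11 over the whole list. Lower contacts were seen at 7 of 7 pairs of Wscd2 and at 0 of 5 of Dab2ip.

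The rule that chose the bins compared loop counts of the control lists only, but the auxin lists are not independent of that choice. The Cyp4f40 bin was moved because its start bin held no loop in any list, the auxin lists included. Of the 65 loops in ESC auxin, 37 were also called in ESC control, or 56.9%, against 47.0% of the whole ESC auxin list. All 9 bins held fewer MAPS loops in NPC auxin than in ESC auxin, 13 against 65, a log2 change of -2.92 (-3.90 to -2.04) relative to the list totals. Fewer loops in NPC auxin were seen at 19.3% of the 1417 bins with at least 10 loops over those lists; 5 of the 9 reached 10, each through its ESC auxin loops, so their direction says nothing more. The median of the 9 single log2 changes, with a pseudocount of 1, was -2.40, against 0.08 over all 1417 bins. The marks are the same in the auxin and control lists of a cell type, so the limit on pairs open to calling applies here too. Among pairs with an anchor marked in each cell type the sums were 13 in NPC auxin and 35 in ESC auxin. Of the 65 loops in ESC auxin, 3 were called in NPC auxin, or 4.62%, while 37.8% of the whole ESC auxin list was.

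Between NPC auxin and NPC control the 9 bins held 13 loops each, a log2 change of 0.99 (-0.24 to 2.22) relative to the list totals. The bins were chosen with few loops in NPC control, which favours a higher relative count in NPC auxin, so this value is a description. None reached 10 loops over both lists, the number asked of the bins behind the background, where 78.3% of 2679 held fewer in NPC auxin. There were more loops in NPC auxin at Tmem235, Dab2ip and Adamtsl3, fewer at Wscd2, Krt2 and Isg20, and equal numbers at Rfx4, Thrsp and Cyp4f40. Of the 13 NPC control loops, 3 were called again in NPC auxin, 2 at Adamtsl3 and 1 at Thrsp. That is 23.1% (5.0 to 53.8), an interval that includes the 27.0% of the whole NPC control list.

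The loops of Rfx4 all ran toward higher coordinates, along the gene and past its 3′ end. In NPC auxin both loops stayed within Rfx4 itself, 120 and 130 kb from its start, with 55 and 61 contacts, and in NPC control they lay at 270 and 300 kb with 29 and 22. Ric8b, the next gene, which encodes a chaperone of G protein alpha subunits, had no partner in the NPC lists, 5 of 8 in ESC auxin and 8 of 15 in ESC control, 160 to 230 kb away. The strongest in ESC control, with 79 contacts, was the bin of the Ric8b start at 160 kb, marked in the ESC lists and absent from the NPC lists. In ESC auxin this pair was not in the MAPS list, but FitHiChIP gave it 53 contacts in ESC auxin and 70 in ESC control. The bin of Cry1, the circadian repressor, 430 kb away, had 47 contacts in ESC auxin and 31 in ESC control.

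Adamtsl3 looked the other way, away from its own gene body, in each of the 4 lists. The pair with the bin 210 kb away, which overlaps no protein-coding gene of the table, was called in all of them, with 39 contacts in NPC auxin, 22 in NPC control, 25 in ESC auxin and 30 in ESC control. Promoter partners appeared in the ESC lists. That of Bnc1, a zinc finger gene of epithelial and germ cells, 340 kb away, had 29 contacts in ESC auxin and 23 in ESC control. That of Hdgfl3, 400 kb away, had 29 contacts in ESC control and was not called in ESC auxin.

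Tmem235 had loops on both sides. The only NPC loop, in NPC auxin, ran toward lower coordinates, 380 kb away with 17 contacts. In the ESC lists most partners at higher coordinates lay over Pgs1 or Dnah17, an axonemal dynein heavy chain, with up to 33 contacts in ESC auxin at 170 kb and up to 43 in ESC control at 230 kb. Of its partners over Dnah17 in ESC control, those at 180 and 220 kb were called again in ESC auxin, with 27 and 30 contacts in ESC auxin, against 31 and 42 in ESC control. Toward lower coordinates the partners lay 330 to 780 kb away in ESC auxin and 290 to 490 kb in ESC control, and none overlaps a protein-coding gene of the table.

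The loops of Thrsp all ran upstream of the gene. In ESC control 14 of its 15 partners lay over Ints4, a subunit of the Integrator complex, Aamdc, Rsf1, a chromatin remodelling factor, Clns1a and the aquaporin gene Aqp11, 80 to 320 kb away. The pair with the bin of the Aamdc start at 160 kb was called with 35 contacts in NPC auxin, 39 in NPC control and 30 in ESC auxin, and was not called in ESC control. The pair with Aqp11 at 320 kb had 21 contacts in both ESC auxin and ESC control.

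Isg20 had the lowest share of ESC control loops called again in ESC auxin among the 9. In ESC auxin its 7 partners lay 310 to 480 kb away, led by the start of Abhd2 at 360 kb with 30 contacts; the start of Fanci, a DNA repair gene, at 480 kb had 23. In ESC control 9 of its 11 partners lay 130 to 220 kb away, most of them over Acan, the gene of the cartilage proteoglycan aggrecan, and Hapln3, with 48 contacts at 170 kb. None of these 9 pairs was in the ESC auxin list. FitHiChIP called loops at 360, 410, 430 and 480 kb in ESC auxin and at 140, 170 and 220 kb in ESC control. The pair with the start of Acan at 140 kb had 28 contacts in NPC control and 35 in ESC control. These counts come from 1 list each.

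Cyp4f40 held loops on 1 side in ESC auxin and on both sides in ESC control. Of its 10 partners in ESC control, 5 lay 110 to 170 kb toward Cyp4f16 and Cyp4f17, members of its own family, with up to 33 contacts, and none of these was called in ESC auxin in either caller. On the other side the pair with Cyp4f14 at 230 kb had 24 contacts in ESC auxin and 23 in ESC control, and that with the zinc finger gene Zfp952 at 320 kb had 22 and 17. Wscd2 kept both its sides. The pair with the start of Ficd, an AMPylating enzyme of the endoplasmic reticulum, 150 kb away, had 41 contacts in NPC control, 56 in ESC auxin and 66 in ESC control. Its strongest pair, 140 kb away, had 54 contacts in ESC auxin and 99 in ESC control.

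Krt2 contacted other keratin genes of its cluster. The pair with Krt87, 380 kb away, had 18 contacts in NPC auxin, 21 in ESC auxin and 20 in ESC control. Over Krt78 on the other side NPC control had 30 contacts at 160 kb, ESC auxin had no loop, and ESC control had 26 contacts at both 140 and 170 kb. Among 17 other genes with a loop in the list of type II keratins and Krt18, a type I keratin, 9 held fewer loops in NPC control than in ESC control, 2 more and 6 the same. Krt71, with 1, 4, 7 and 10 loops in NPC auxin, NPC control, ESC auxin and ESC control, and Krt72, with 2, 3, 8 and 8, shared the marks of Krt2, marked in the ESC lists only.

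Of all 10585 bins with a gene start and a loop in any MAPS list, 24.6% held fewer loops in NPC control than in ESC control. Of the other CYP4F genes with a loop, 0 of 7 held fewer loops in NPC control than in ESC control, 3 held more and 4 the same number. Of the other RFX factors 2 of 5 held fewer and 2 more, and of the other ADAMTSL genes 1 of 2 held fewer and 1 more. Of the other RasGAP genes 1 of 3 held fewer and 1 more. None of Isg20l2, Aen, Wscd1 and Tmem114, the relatives of Isg20, Wscd2 and Tmem235 with a loop, held fewer, and each held more in NPC control than in ESC control.

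**Figure D4:**
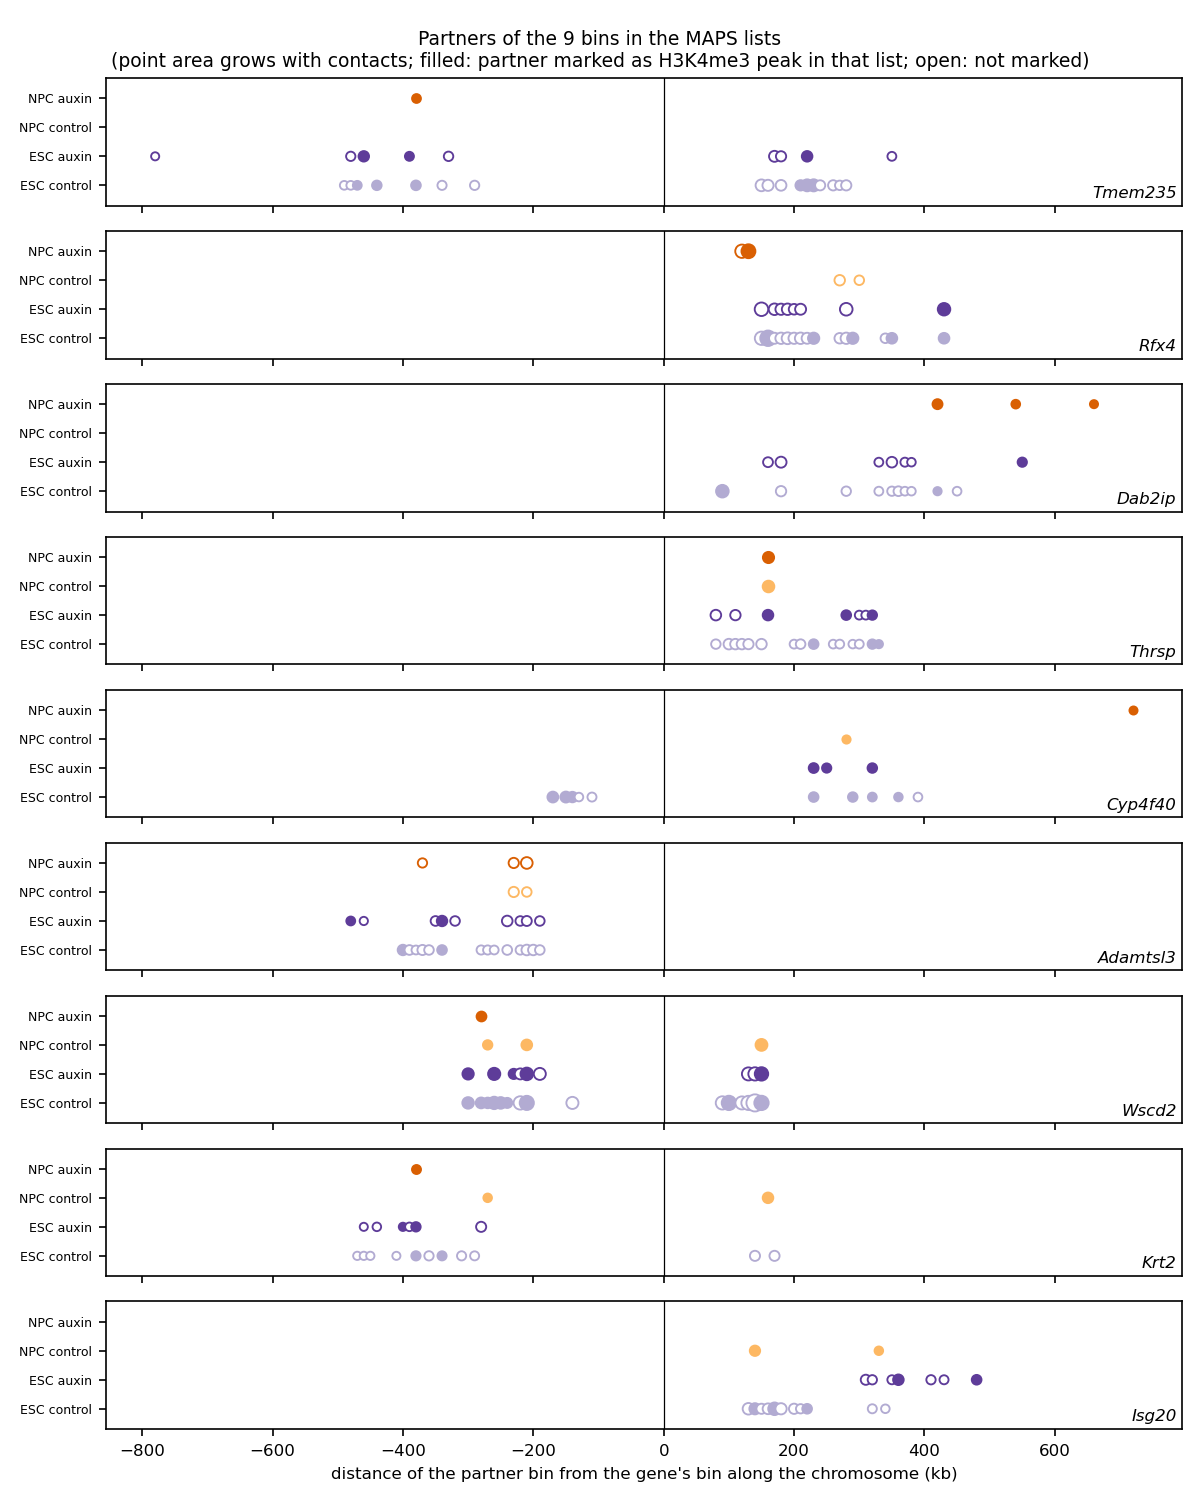
Distance along the chromosome from each bin to its MAPS partners (x axis, kb, higher coordinates to the right) in NPC auxin, NPC control, ESC auxin and ESC control, from top to bottom. Point area grows with contacts, and filled points are partners marked as H3K4me3 peaks in that list. The Isg20 partners in ESC auxin begin at 310 kb, and the Cyp4f40 partners at -110 to -170 kb are seen in ESC control only among the 4 lists.

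Over all 9 bins the median distance to the partner was 370 kb in NPC auxin, 230 kb in NPC control, 300 kb in ESC auxin and 245 kb in ESC control. The medians of the whole lists were 300, 260, 240 and 230 kb in the same order. Partners with a mark of their own made up 9 of 13 in NPC auxin, 9 of 13 in NPC control, 22 of 65 in ESC auxin and 39 of 118 in ESC control. Of the NPC loops, 8 in NPC auxin and 9 in NPC control lay at bins unmarked in the NPC lists. There a loop needs a marked partner, so the NPC shares are largely fixed and cannot be set beside the ESC ones. In the ESC lists all 9 bins are marked, so the 22 and 39 are pairs with both anchors marked. Such pairs made up 36.2% of the whole ESC auxin list and 26.4% of the whole ESC control list.

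Dab2ip has 4 annotated starts, and they differed. The bin of start 1 held 3 loops in NPC auxin, 0 in NPC control, 7 in ESC auxin and 10 in ESC control. The bin of start 2, chr2:35580001-35590000, downstream of the first and marked in both cell types, held 6, 8, 3 and 0 in the same order, the reverse of start 1 between NPC control and ESC control. FitHiChIP called 1, 3, 0 and 1 loops at start 2 in that order. Short-range reads there were 1046 in NPC auxin, 927 in NPC control and 446 in ESC auxin. Start 3 held 0, 3, 0 and 2 loops and start 4 held 1, 0, 0 and 1.

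Most partners of both starts in these lists lay over the same gene, Ttll11, a tubulin polyglutamylase. From start 2, in NPC control, all 8 partners lay there, 290 to 390 kb away, with 23 to 30 contacts. From start 1, in ESC control, 7 of the 10 partners lay there, 280 to 420 kb away, with 13 to 23 contacts. The ESC control partner of start 1 with most contacts, 48, lay elsewhere, 90 kb away within Dab2ip. The Ttll11 bin chr2:35900001-35910000 was paired with start 2 in NPC auxin, with 37 contacts, and in NPC control, with 25. The same bin was paired with start 1 in ESC auxin, with 30 contacts, and in ESC control, with 20. With auxin, start 1 also had loops over Lhx6, a LIM homeobox gene of interneurons, at 540 kb in NPC auxin with 16 contacts and at 550 kb in ESC auxin with 20. The first-start window printed above has 12 CpG and no GC box, and the second has 29 CpG and 4 GC boxes.

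**Figure D5:**
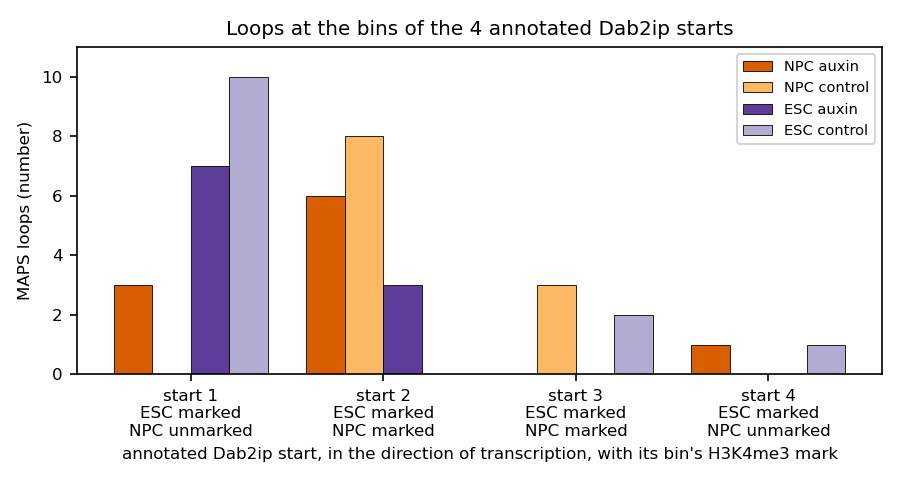
MAPS loops (y axis, number) at the bins of the 4 annotated Dab2ip starts (x axis, with the H3K4me3 mark of the bin in each cell type) in NPC auxin, NPC control, ESC auxin and ESC control. Start 1 has 0 loops in NPC control and 10 in ESC control, and start 2 has 8 and 0.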

How the data were processed

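Contacts were measured by H3K4me3 PLAC-seq in 14 samples; 8 of them, in 4 groups, stand behind the 8 deposited lists used, 1 per group and caller. The submitters' processing notes name mm10, BWA and Picard without versions. No source used here says if samples were pooled for calling. Per the file headers, the MAPS lists give for each pair of 10 kb bins a read count, the expected signal of the background model, the ratio of count to expected, an FDR (a q-value) and short-range read counts per anchor. The deposited FitHiChIP lists give contact counts, covering reads, a q-value and, as a fraction, the share of contacts that the model places in the pair. In the deposited MAPS lists each count was at least 12, the FDR was under 0.01 and distances ran from 20 to 1000 kb. Counts, ratios and q-values are the authors' own. The other value columns, 21 per MAPS list and 11 per FitHiChIP list, were not used. Contacts below these thresholds are not seen, so 0 loops is not 0 contact.

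The bins, the gene lists and the comparisons were chosen with earlier results of these data known. The bin of a gene was that of its first start in the RefSeq table of GRCm38.p6, or, without a strand, its marked end; for Cyp4f40 the start bin held no loop, so its other end was used, a departure from the rule. All 9 genes are named, with genes under partners and, for some lists, the partner of most contacts. Other genes named with their values are the listed families and markers, bins most like the 9, and, chosen after their values were seen, those ranked beside them. Loops per bin were compared as log2 of loops plus a pseudocount of 1, relative to the list totals; sums carry no pseudocount. The background was all marked bins with a gene start and at least 10 loops over the lists compared. Values used python 3.11.15, pandas 2.3.3 and scipy 1.17.1, and the counting was tested on simulated data. Alternatives were the FitHiChIP lists, an FDR under 0.001, either neighbouring bin, runs of adjacent partners counted once, partners within 1 bin and, added after seeing the data, pairs open to calling in both cell types and leaving out Cyp4f40.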

Additional observations from a re-analysis of the deposited data

Results flagged for a closer look

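In 3 of the 9 bins the auxin lists differed from the control lists in opposite directions in the 2 cell types, with 1 list on each side, and these differences were not tested. Tmem235 had 1 more MAPS loop in NPC auxin than in NPC control, and in ESC auxin its number differed from that in ESC control by -8. Dab2ip had 3 more in NPC auxin than in NPC control, and a difference of -3 between ESC auxin and ESC control. Adamtsl3 had 1 more in NPC auxin than in NPC control, and a difference of -5 between ESC auxin and ESC control. All 3 NPC differences rest on at most 3 loops in either list. The bins were chosen with few loops in NPC control and many in ESC control, which favours higher counts in NPC auxin and lower ones in ESC auxin.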

How the results depend on the processing

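No paired analysis was possible because the lists hold no values per replicate, and for the same reason no replicate could be left out. No log2 change whose interval excluded 0 changed sign under the alternatives. These include the changes between NPC control and ESC control, whose direction the choice of bins fixes, so their sign supports nothing. Only the sign was compared, not whether an interval came to include 0. Of log2 changes whose interval included 0, 14 of 99 for single bins changed sign, as did 1 of 10 for the summed bins, ESC auxin against ESC control. Of 34 values for the summed bins, 24 lay inside the interval of the reported value, which can still be a large shift: NPC auxin against NPC control was 0.24 with either neighbouring bin, against 0.99. For NPC auxin against ESC auxin the log2 change was -4.52 in the FitHiChIP lists, -2.12 with runs of adjacent partners counted once and -2.08 among pairs open to calling in both cell types. For NPC control against ESC control it was -5.55 in the FitHiChIP lists, -2.31 with either neighbouring bin, -2.18 with runs of adjacent partners counted once (12 runs in NPC control and 39 in ESC control) and -2.66 among pairs open to calling in both cell types. With runs counted once, Wscd2 held 3 in each control and Isg20 held 2 in each, and the other bins held fewer in NPC control. For ESC auxin against ESC control the log2 change was 0.64 with runs counted once (33 runs in ESC auxin and 39 in ESC control), against 0.18. In the FitHiChIP lists it was -0.18, and each of these intervals includes 0. With partners within 1 bin, 55.9% of ESC control loops had a loop in ESC auxin and 18.6% in NPC control. No whole-list share was computed for either. In the FitHiChIP lists 0% of the 35 ESC control loops were called in NPC control, and 0% of the 1 NPC control loop in NPC auxin. The shares of the whole FitHiChIP lists were 53.5% and 35.8%. Of values for single bins, 180 lay inside that interval and 14 did not; at Dab2ip, NPC auxin against ESC auxin turned to 0.35 among open pairs, from 3 loops in NPC auxin and 1 in ESC auxin. Counting neighbouring bins or partners within 1 bin takes in more pairs, and the other alternatives take in other or fewer pairs; the cause of these shifts was not tested. Counts of 0 to 17 loops per bin limit what single bins can show.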
